A study of Mus musculus with 18 samples.

Results

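Cartilage is built by chondrocytes, which fill the space around them with a matrix of fibrillar collagen and of aggrecan held on hyaluronan. The transcription factor SOX9 is required to form them, and SOX5 and SOX6 act beside it at cartilage matrix genes. Chondrogenesis is one of the standard differentiation routes of bone marrow mesenchymal stem cells (MSCs). The genes described here are the 8 cartilage regulators and matrix genes Sox9, Sox5, Sox6, Acan, Comp, Hapln1, Prg4 and Matn2, picked by symbol from a table of 27179 genes. All 8 were in the table, and 5 of them (Sox9, Sox5, Comp, Prg4 and Matn2) averaged 10 normalized counts or more and entered the test across 14353 genes. Sox6, Acan and Hapln1 averaged less.

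The data were RNA-seq of 18 cultures of primary MSCs from the bone marrow of male C57BL6 mice, with 6 cultures per group, young, old or rejuvenated old, harvested on day 7. Young MSCs came from mice of 6 weeks and old MSCs from mice of 18 to 24 months, both without treatment and at passage 2 to 5. Rejuvenated old MSCs were old MSCs that spent the 7 days in co-culture with young MSCs across a Transwell membrane with pores of 0.4 µm, which soluble factors cross and cells do not. None of the 18 libraries came from old MSCs that shared the well with old MSCs. Co-culture as such and the young age of the partner cells therefore cannot be told apart in these RNA data. The study ran that control for tubule formation and secreted factors. Its tubule formation did not differ significantly from that of old MSCs grown alone. The sample labels give alpha-MEM with 20% serum for expansion, whereas the study's methods name another medium with less serum, so the medium used is uncertain. No cartilage-inducing treatment was part of any group.

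The libraries held 22936251 to 29559194 reads on genes. The labels call the 6 libraries of a group biological replicates. How many animals gave them is not stated in the sources used here, so p-values measure the spread between these cultures. Donor age cannot be told apart from other differences between the cultures of young and of old mice. Values are normalized counts, which are reads divided by a size factor of the library. Comparisons of levels between genes use the normalized count per kilobase of exon. Ratios of genes within a library are the exception: they use normalized counts without correction for length, and serve only to compare groups. Log2 fold changes are differences of group means of log2(normalized count + 1), with limma's standard error (SE), its 95% interval and a Benjamini-Hochberg adjusted p over all genes tested. A gene was called at an adjusted p under 0.05. A group was said to be at the floor for a gene when none of its libraries held more than 3 reads of it, and this limit covers counting error only.

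Of the 5 tested members, 2 were called between rejuvenated old and old MSCs, Sox9 higher and Matn2 lower, against 41.6% of all genes tested (21.0% higher and 20.6% lower). All 5 were called between young and old MSCs, 3 higher and 2 lower in young MSCs, where 85.7% of all genes were called (41.6% higher and 44.1% lower). All 5 were also called between young and rejuvenated old MSCs, again 3 higher and 2 lower in young MSCs, where the share was 85.6% (41.5% higher and 44.1% lower). These counts are near the background of all genes and are no result about the members, so each gene is described by the size and direction of its difference. In both comparisons with young MSCs, Sox5, Comp and Matn2 were higher in young MSCs and Sox9 and Prg4 were lower.

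The deposited data hold no sequence, and the promoters of 4 members (Sox5, Sox6, Acan and Hapln1) were found in the RefSeq promoter table of GRCm38.p6. The Sox5 and Acan promoters are shown because Sox5 differed most between young and old MSCs among the SOX members, whereas Acan gave almost no reads. Each is the 250 bases before an annotated start, 5′ to 3′ on the gene's strand, with motif matches in capitals. The Sox5 window is chr6:143947107-143947356 on the minus strand, and this start lies 835181 bases inside the gene. The Acan window is chr7:79052976-79053225 on the plus strand, directly before the gene.
Sox5: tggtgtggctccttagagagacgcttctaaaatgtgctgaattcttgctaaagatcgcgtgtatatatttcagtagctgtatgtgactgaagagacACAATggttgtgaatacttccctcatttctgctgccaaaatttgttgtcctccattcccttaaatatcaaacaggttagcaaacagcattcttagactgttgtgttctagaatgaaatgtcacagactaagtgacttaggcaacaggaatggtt
Acan: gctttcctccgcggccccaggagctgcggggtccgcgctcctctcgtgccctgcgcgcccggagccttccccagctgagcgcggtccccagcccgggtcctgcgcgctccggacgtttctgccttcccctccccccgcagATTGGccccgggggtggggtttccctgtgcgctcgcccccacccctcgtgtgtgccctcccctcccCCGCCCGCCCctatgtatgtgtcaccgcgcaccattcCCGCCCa
Both strands were searched for the TATA box TATAAA, the CCAAT box, the GC box GGGCGG, the hypoxia response core ACGTG and the pair of short SOX-type motifs, ACAAT and then ACAAAG. In the Sox5 window the capitals mark 1 ACAAT, which was present in 27.7% of 32851 mouse promoters of this length. In the Acan window they mark 1 CCAAT (33.8% of promoters) and 3 GGGCGG (32.7%), all on the opposite strand, and the first pair of GC boxes share bases. The Acan window held 26 CG dinucleotides and 74.4% G or C, more CG than 90.4% of promoters, and the Sox5 window held 3 CG and 39.6% G or C. The median promoter held 6 CG. These matches describe the letters and say nothing of binding in MSCs.

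Sox9 (gene 20682, chr11:112782210-112787757 in mm10), the master regulator of chondrocyte fate, was lowest in young and highest in rejuvenated old MSCs. Its normalized count ran from 344.3 through a median of 380.5 to 394.4 in the young libraries, from 530.1 through 618.1 to 667.9 in the old, and from 921.0 through 1014.9 to 1063.3 in the rejuvenated old. The 3 ranges did not overlap. Rejuvenated old MSCs had a mean of 999.0 ± 52.2 (SD, n = 6) against 604.1 ± 50.6 in old MSCs (SD, n = 6), which is 1.65 times the old level, with a log2 fold change of 0.73 (SE 0.06, 95% interval 0.61 to 0.84, limma adjusted p = 7.34e-10). Groups without overlap were found for 22.0% of all genes in this comparison, and 5.16% of all genes had a larger absolute change. The share without overlap was 73.9% between young and old and 70.5% between young and rejuvenated old MSCs. Old MSCs in turn had 1.62 times the young mean of 372.7 ± 21.5 (SD, n = 6), so that young against old gave −0.69 (SE 0.06, limma adjusted p = 6.54e-11). The median absolute log2 fold change of all genes tested between young and old MSCs was 0.60, so this difference was of ordinary size. Rejuvenated old MSCs were thus farther from the young level of Sox9 than old MSCs were, at 2.68 times the young mean (limma adjusted p = 9.89e-17).

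Sox5 (gene 20678, chr6:143828425-144782287), a SOX factor without a transactivation domain of its own that works with SOX9, had the opposite order between young and old MSCs. Normalized counts of Sox5 ran from 296.6 through 320.4 to 375.6 among young, from 102.9 through 115.9 to 131.4 among old and from 86.9 through 109.4 to 120.5 among rejuvenated old libraries. Every young library lay above every other library, and the old and rejuvenated old ranges overlapped. Young MSCs had 2.84 times the old mean, a log2 fold change of 1.50 (SE 0.10, limma adjusted p = 1.31e-12), and 3.12 times the rejuvenated old mean (limma adjusted p = 2.55e-13). Groups without overlap made up 73.9% of all genes between young and old MSCs and 70.5% between young and rejuvenated old MSCs. Rejuvenated old against old gave −0.14 (SE 0.10, limma adjusted p = 0.261), with a 95% interval of −0.34 to 0.06. Sox5 was not called between these groups, and the interval still held differences down to −0.34. As a result the ratio of Sox9 to Sox5 normalized counts in a library had a median of 1.19 for young, 5.12 for old and 8.86 for rejuvenated old MSCs, and its ranges of 0.942 to 1.27, 4.96 to 5.84 and 8.49 to 12.2 did not overlap.

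Sox6 (gene 20679, chr7:115470872-116040776), the close relative and partner of SOX5, was barely detected, with 31 reads over the young, 37 over the old and 21 over the rejuvenated old libraries. Its low normalized counts ran from 2.24 through 5.84 to 7.97 among young, from 4.31 through 5.70 to 9.09 among old and from 0.951 through 3.75 to 4.83 among rejuvenated old libraries. The old and rejuvenated old ranges overlapped between 4.31 and 4.83. The difference of −0.74 on the log2 scale had p = 0.00649 in a two-sided exact permutation test over the 924 splits of 12 libraries, 1 of 9 such tests on the 3 low members and not adjusted for their number. In a limma fit over all 21697 genes with a read, the same difference had an adjusted p of 0.0848, and Sox6 was not called. Young MSCs did not separate from old MSCs (−0.21, exact permutation p = 0.472) or from rejuvenated old MSCs (0.53, exact permutation p = 0.139). At this depth, differences of Sox6 were hard to resolve.

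**Figure D1:**
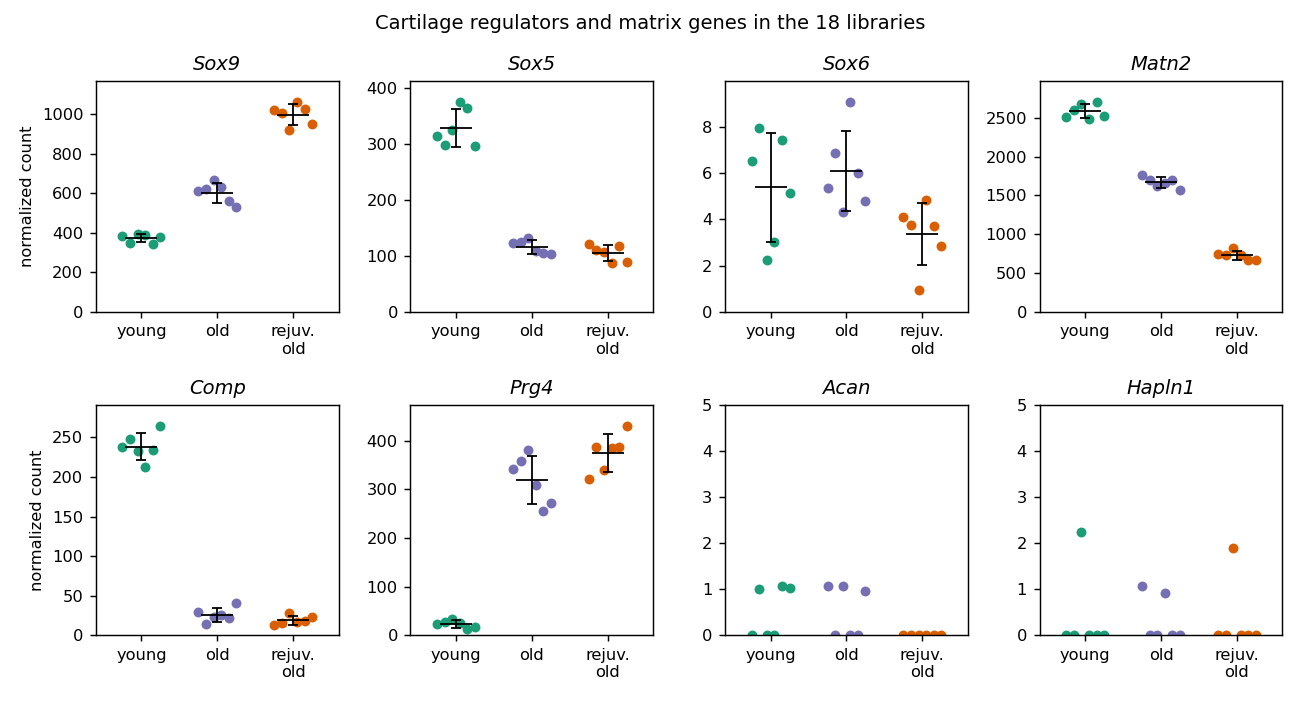
Normalized count of the 8 genes in each library, with 1 panel per gene and a linear axis from 0 for each, 6 points per group, and bars for the mean ± SD except for Acan and Hapln1. The 3 ranges of Sox9 and of Matn2 did not overlap, the young libraries of Sox5, Comp and Prg4 stood apart from all others, and Acan and Hapln1 lay at the floor throughout.

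Among the SOX relatives listed beside the members, Sox4, Sox11, Sox12 and Sox13 were tested. Sox11, a SoxC factor of mesenchymal progenitors, had a mean of 27.7 for young, 275.8 for old and 357.9 for rejuvenated old MSCs. It was called in both contrasts (young against old −3.28, rejuvenated old against old 0.38, limma adjusted p = 3.47e-19 and 0.0031). Sox4, of the same subgroup, was lower in rejuvenated old relative to old MSCs (−0.48, limma adjusted p = 0.000166). Sox13, the third SoxD factor beside Sox5 and Sox6, had a mean of 72.8 for young, 263.0 for old and 231.0 for rejuvenated old MSCs, and young against old was −1.85 (limma adjusted p = 5.24e-15). Sox5 and Sox13, which belong to the same SoxD subgroup, were thus called in opposite directions between young and old MSCs. Sox8, a SoxE relative of Sox9, averaged too little to be tested, with 89 reads over the young, 5 over the old and 16 over the rejuvenated old libraries. Each young library held 12 to 21 reads and each old library at most 2, the opposite direction to Sox9.

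Acan (gene 11595, chr7:79053226-79115099), which encodes aggrecan, the large proteoglycan that gives cartilage its resistance to compression, was at the floor in all 3 groups. There were 3 reads over the 6 young libraries, 3 over the 6 old and 0 over the 6 rejuvenated old. A count of 0 over 6 libraries allows up to 3 reads. No fold is given, and the exact permutation p was 0.182 for rejuvenated old against old, 0.913 for young against old and 0.182 for young against rejuvenated old. Hapln1 (gene 12950, chr13:89540529-89611832), the link protein that fastens aggrecan to hyaluronan, was at the floor as well, with 2 reads in each group of 6 libraries (exact permutation p = 1 in each comparison). The aggrecan and link protein pair was thus hardly detected in MSCs of any group.

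Other members of both families gave reads. Vcan, which encodes the aggrecan relative versican, had a mean of 1721 for young, 28253 for old and 23575 for rejuvenated old MSCs. It was lower in young than in old MSCs by −4.04 and in rejuvenated old relative to old MSCs by −0.26 (limma adjusted p = 3.98e-26 and 0.000134). Bcan, at a far lower level, had a mean of 1.93 for young, 51.9 for old and 35.6 for rejuvenated old MSCs. Ncan was at the floor in every group. Of the link proteins, Hapln2 and Hapln3 were higher in young than in old MSCs (2.31 and 1.25, limma adjusted p = 1.17e-06 and 3.11e-05). Both were low, with means of 28.0 and 25.3 in young and 5.80 and 10.3 in old MSCs. Hapln4 was slightly lower in young MSCs (−0.31, limma adjusted p = 0.0361). None of these 3 passed the test between rejuvenated old and old MSCs.

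Matn2 (gene 17181, chr15:34306681-34436242) encodes matrilin-2, a filament-forming adaptor protein that is found in many connective tissues and less restricted to cartilage than matrilin-1 and matrilin-3. It had the highest level per kilobase of the 8 members in young and old MSCs, at 424 and 274 normalized counts per kilobase, and fell to 119 in rejuvenated old MSCs, below the 242 of Sox9. Its normalized count ran from 2486.2 through 2563.8 to 2702.9 among young, from 1563.3 through 1681.0 to 1761.3 among old and from 663.1 through 735.6 to 823.9 among rejuvenated old libraries. The 3 ranges did not overlap, and old MSCs lay between the other groups. Groups without overlap made up 22.0% of all genes between rejuvenated old and old MSCs. The share was 73.9% between young and old and 70.5% between young and rejuvenated old MSCs. Old MSCs had 2.29 times the mean of rejuvenated old MSCs, and rejuvenated old against old was −1.20 (SE 0.05, 95% interval −1.29 to −1.10, limma adjusted p = 5.74e-15), a larger absolute change than in all but 1.39% of genes tested. Young MSCs had 1.55 times the old mean (0.63, SE 0.05, limma adjusted p = 7.9e-12) and 3.55 times the rejuvenated old mean (limma adjusted p = 1.5e-20). The difference between young and old MSCs was of ordinary size, since the median absolute log2 fold change of all genes tested was 0.60 there.

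Sox9 and Matn2 therefore moved away from the young level on co-culture, in opposite directions. The ratio of Sox9 to Matn2 normalized counts in a library ran from 0.127 to 0.156 in young, from 0.329 to 0.411 in old and from 1.12 to 1.55 in rejuvenated old MSCs. Of the other matrilins, Matn1 and Matn3, the cartilage matrilins, had 1 and 22 reads over the young libraries, 10 and 76 over the old, and 17 and 89 over the rejuvenated old. Matn4 had a mean of 27.1 for young, 101.8 for old and 63.9 for rejuvenated old MSCs, so that it was lower in young than in old MSCs (−1.89, limma adjusted p = 1.02e-11), opposite to Matn2. Rejuvenated old MSCs were lower than old MSCs in Matn4 (−0.67, limma adjusted p = 0.000413), the same direction as Matn2.

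**Figure D2:**
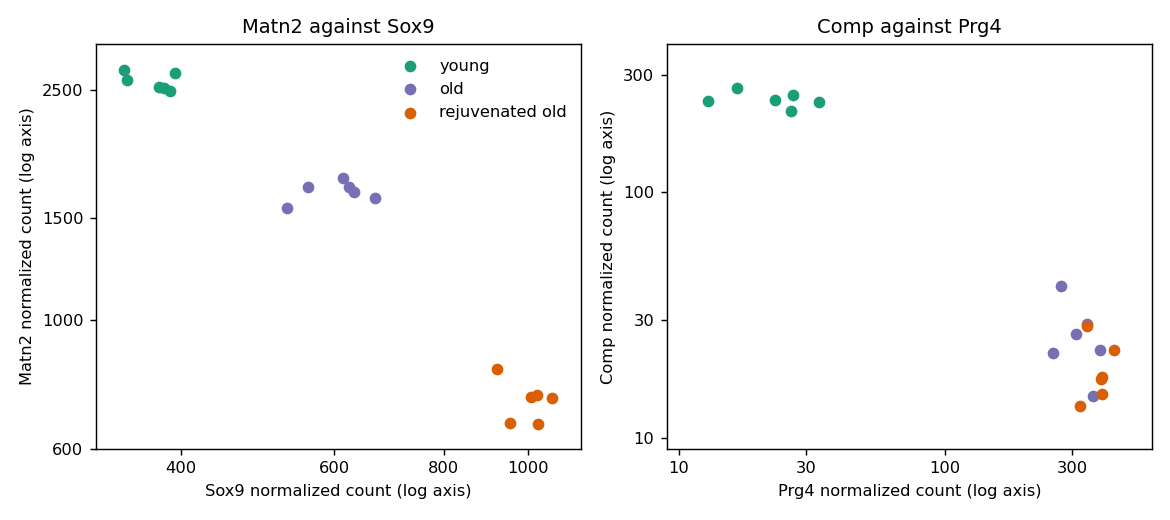
Normalized counts in each library on log axes, with Matn2 against Sox9 at left and Comp against Prg4 at right, 1 point per library coloured by group. The groups formed 3 separate sets in Matn2 and Sox9, whereas in Comp and Prg4 the old and rejuvenated old libraries lay together, apart from the young ones.

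Comp (gene 12845, chr8:70373548-70382066) encodes cartilage oligomeric matrix protein, a thrombospondin relative that links collagen fibres in cartilage and tendon. Normalized counts of Comp ran from 212.6 through 235.9 to 264.6 among young, from 14.8 through 24.5 to 41.4 among old and from 13.4 through 17.5 to 28.5 among rejuvenated old libraries. All young libraries lay above all others, and the old and rejuvenated old libraries overlapped. Groups without overlap were found for 73.9% of all genes between young and old and 70.5% between young and rejuvenated old MSCs. Young MSCs had 9.15 times the old mean (3.21, SE 0.19, limma adjusted p = 2.83e-13) and 12.5 times the rejuvenated old mean (limma adjusted p = 3.14e-14). Rejuvenated old against old was −0.40 (SE 0.19, 95% interval −0.80 to −0.01 before adjustment, limma adjusted p = 0.0976), and Comp was not called. The call depended on single libraries, and without old replicate 2 it was −0.55 (limma adjusted p = 0.0177), and leaving out rejuvenated old replicate 3 gave −0.52 (limma adjusted p = 0.0302). Its relative Thbs3 ran against it, with a mean of 566.7 in young and 970.8 in old MSCs (−0.78, limma adjusted p = 3.12e-14), and Thbs4 had 37 reads over the young, 1 over the old and 0 over the rejuvenated old libraries.

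Comp is also expressed in tendon, and of the 4 tendon markers Scx was high in the same libraries as Comp while Mkx and Tnmd were not. Thbs4 was detected mainly in the young libraries, at only 4 to 9 reads in each, and was not tested. Scx, a transcription factor that marks tendon cells, had a mean of 1213 for young, 34.3 for old and 25.4 for rejuvenated old MSCs. The summed normalized count of the 4 tendon markers (Scx, Mkx, Tnmd and Thbs4) was 1352 to 1489 for young, 277 to 338 for old and 186 to 255 for rejuvenated old libraries, most of it Scx in young MSCs. Of the 2 that were tested, Scx was higher in young than in old MSCs and Mkx was lower, while Tnmd had 0 reads in all young libraries. Their part in the Comp result was not tested.

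Prg4 (gene 96875, chr1:150449412-150466221) encodes lubricin, the proteoglycan that lubricates the joint surface. Normalized counts of Prg4 ran from 12.8 through 24.6 to 33.5 among young, from 254.9 through 325.5 to 380.3 among old and from 321.3 through 385.4 to 431.1 among rejuvenated old libraries. All young libraries lay below all others, and the old and rejuvenated old libraries overlapped. Among all genes, 73.9% had no overlap between young and old and 70.5% none between young and rejuvenated old MSCs. Old MSCs had 13.8 times the young mean and rejuvenated old MSCs 16.2 times, so that young against old was −3.78 (SE 0.17, limma adjusted p = 7.32e-16) and young against rejuvenated old −4.02 (limma adjusted p = 2.39e-16). Rejuvenated old against old was 0.24 (SE 0.17, 95% interval −0.10 to 0.58, limma adjusted p = 0.265). The ratio of Comp to Prg4 normalized counts thus had a median of 9.80 in young and 0.0851 in old MSCs.

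Prg4 overlaps Tpr by 524 bases on opposite strands. Tpr had a mean normalized count of 4260 and a young against old change of −0.51, and its part in the Prg4 counts was not tested. The kit was stranded, but the strand setting of the counting is not stated, so reads from the overlap cannot be assigned with certainty. Genes of chromosome 1 were also lower in young against old MSCs as a whole, by a median of −0.66 relative to all autosomes, and the change of Prg4 relative to its chromosome's median was −3.09. In the same way chromosome 15, which holds Matn2, was shifted by 0.23, and Matn2 relative to its chromosome was 0.43 (limma adjusted p = 5.05e-09). The shift was 0.64 for chromosome 7 (Sox6 and Acan) and −0.27 for chromosome 13 (Hapln1). It was 0.18 for chromosome 8 (Comp), 0.11 for chromosome 6 (Sox5) and 0.03 for chromosome 11 (Sox9). Between rejuvenated old and old MSCs the chromosomes of the members were shifted by at most 0.05.

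**Figure D3:**
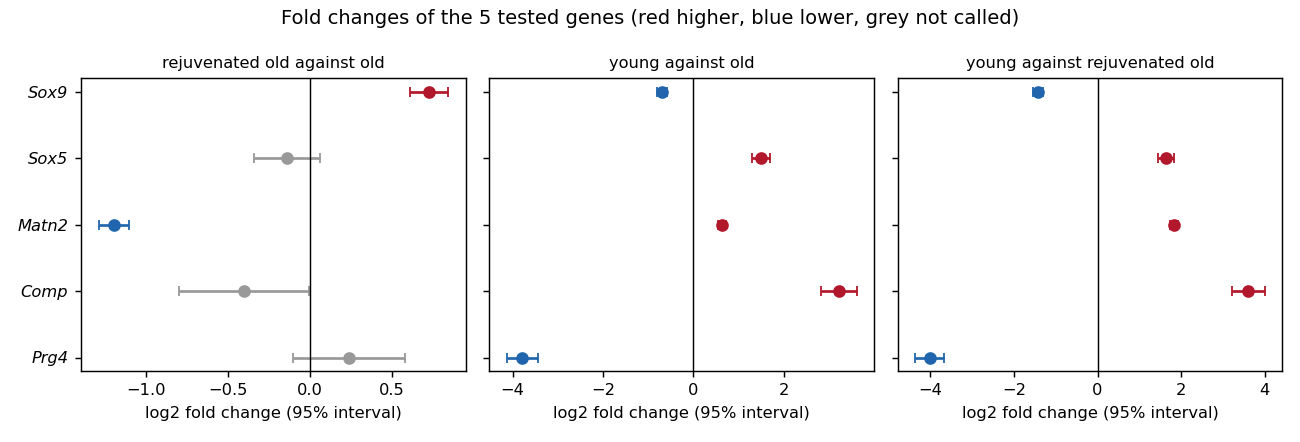
Log2 fold change of the 5 tested genes in the 3 comparisons, with points for the estimate, bars for the 95% interval before adjustment, red for genes called higher, blue for genes called lower and grey for genes not called. Sox9 and Matn2 were called in all 3 comparisons, and Sox5, Comp and Prg4 only in the comparisons with young MSCs.

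The setting of these genes was described with 4 hand-written lists of 120 other cartilage genes, of which 97 were tested. Between rejuvenated old and old MSCs, 23 were higher, 37 were lower and 37 were not called, and the median log2 fold change was −0.06 against 0.01 over all genes. Between young and old MSCs, 27 were higher and 62 lower, with a median of −0.48 against −0.02 over all genes. The share of list genes called was 61.9% in the first comparison and 91.8% in the second, beside 41.6% and 85.7% of all genes.

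Among 30 tested cartilage regulators, 9 were higher and 10 lower in rejuvenated old relative to old MSCs, 63.3% called against 41.6% of all genes, with a median of −0.10. The 3 largest rises were Pth1r, the receptor of parathyroid hormone (0.80), Osr1 (0.77) and Runx1 (0.40), and the largest falls were Gdf6, a bone morphogenetic protein of joint formation (−0.56), the hedgehog receptor Ptch1 (−0.52) and Sox4. In young against old MSCs, 10 were higher and 15 lower (83.3% called against 85.7%). There Bmpr1b, a bone morphogenetic protein receptor of early cartilage condensations, was higher in young MSCs by 4.40, and the hedgehog effector Gli2 by 2.83. Pth1r and Nkx3-2, a chondrocyte factor in a mutual loop with SOX9, were lower, by −2.69 and −2.64.

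Among 23 tested cartilage matrix genes, 4 were higher and 5 lower in rejuvenated old relative to old MSCs (median 0.12, 39.1% called against 41.6% of all genes). In young against old MSCs 8 were higher and 14 lower (median −0.78, 95.7% called against 85.7%). Col2a1, which encodes the main collagen of cartilage and is a known target of SOX9, had the order of Sox9. Its normalized count ran from 6.70 through 7.33 to 10.9 among young, from 1547.8 through 1756.1 to 1857.0 among old and from 2340.5 through 2643.1 to 2963.0 among rejuvenated old libraries. The 3 ranges did not overlap, and rejuvenated old against old was 0.62 (SE 0.09, limma adjusted p = 8.04e-06). Groups without overlap made up 22.0% of all genes in that comparison and 73.9% between young and old MSCs. The part of Sox9 in the Col2a1 values was not tested. Col11a1, whose chain assembles with type II collagen, ran the other way, with a mean of 1350 in young and 6.00 in old MSCs (7.63, limma adjusted p = 1.25e-15). Prelp, a leucine-rich repeat proteoglycan, rose by 1.71 on co-culture (limma adjusted p = 5.45e-14), and Col10a1, the collagen of hypertrophic chondrocytes, fell by 0.71 (limma adjusted p = 0.00675) from a mean of 451.7 to 276.4.

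**Figure D4:**
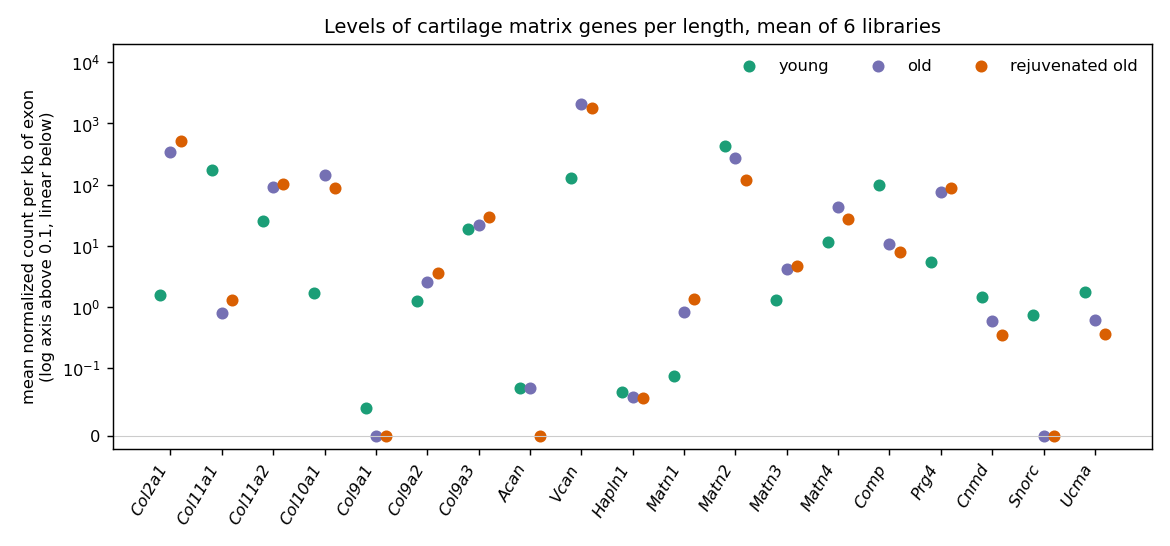
Mean normalized count per kilobase of exon for cartilage matrix genes in the 3 groups (axis linear near 0 and logarithmic above). Acan and Hapln1 lay at the floor in every group, Vcan stood at 128 in young and 2108 in old MSCs, and Col2a1 stood at 1.55 for young, 338 for old and 520 for rejuvenated old MSCs.

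Of 24 tested genes that build and sulfate chondroitin chains, 4 were higher and 11 lower in rejuvenated old relative to old MSCs (median −0.11, 62.5% called against 41.6% of all genes). In young against old MSCs 5 were higher and 18 lower (median −0.44, 95.8% called against 85.7%). Slc26a2, the sulfate transporter whose loss causes chondrodysplasia, fell on co-culture by 0.80, and Chst11, a chondroitin sulfotransferase, by 0.58. Of 20 matrix turnover genes, all tested, 6 were higher and 11 lower in rejuvenated old relative to old MSCs (median −0.22, 85% called against 41.6% of all genes). Adamts5, a main aggrecanase, rose by 1.49 on the log2 scale (limma adjusted p = 3.71e-15) and Mmp13, a collagenase of cartilage, by 1.06 (limma adjusted p = 4.91e-08). Adamts4, the other main aggrecanase, fell by 0.34 (limma adjusted p = 0.000324). In young against old MSCs 4 turnover genes were higher and 15 lower (median −0.78, 95% called against 85.7%), with Mmp13 lower by −7.61.

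Chondrocyte markers were only partly present. Of 10 markers, Col9a1, Cnmd, Snorc and Ucma were at the floor in every library, and Acan, a defining gene of the type that was not on this list, was at the floor too. The summed normalized count of the 10 markers, most of it Col2a1 and Col11a2 in old MSCs, was 200 to 263 for young, 2083 to 2600 for old and 3124 to 3597 for rejuvenated old libraries. Of the 4 tested, 2 were called higher in rejuvenated old relative to old MSCs and 3 were called lower in young relative to old MSCs. Of all genes, 21.0% were called higher in the first comparison and 44.1% lower in the second. Besides Col2a1, Col9a3, a type IX collagen chain, was called higher in rejuvenated old relative to old MSCs (0.41, limma adjusted p = 0.0356), with overlapping libraries. Col11a2 and Matn3 were lower in young relative to old MSCs (−1.84 and −1.53, limma adjusted p = 4.52e-12 and 1.74e-05) and not called between rejuvenated old and old MSCs (0.12 and 0.19). Col9a2 had 21 reads over the young, 45 over the old and 65 over the rejuvenated old libraries and was not tested, and Matn1 was near the floor.

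Markers of other cell types also separated young from old MSCs, as did most genes. Between young and old MSCs, 41.6% of all genes were called higher in young MSCs and 44.1% lower. All 8 macrophage markers were lower in young MSCs, with summed normalized counts of 918 to 1038 for young, 12169 to 15458 for old and 12127 to 14989 for rejuvenated old libraries. The 4 adipocyte markers summed to 55.6 to 76.0 in young and 3125 to 3402 in old libraries, and the 6 osteoblast markers to 354 to 464 and 2089 to 2352. The 5 endothelial markers summed to 6921 to 7301 in young and 36.6 to 66.0 in old libraries, but Cd34, which stromal progenitors also express, gave a mean of 7006 of the young sum. Of the other 4, Kdr had a mean of 85.7 in young and 9.12 in old MSCs, and Cdh5, a defining marker, one of 1.54 and 0. The 9 stromal markers summed to 57281 to 70940 for young, 224553 to 245096 for old and 253475 to 305319 for rejuvenated old libraries, most of it Cxcl12 in both old groups, and 4 of the 9 (Ly6a, Thy1, Nt5e and Pdgfra) were higher in young relative to old MSCs and 5 lower. In bulk RNA, fewer cells of a type and less RNA per cell cannot be told apart. The part of these cell types in the differences of Sox9, Sox5, Comp, Prg4 and Matn2 between young and old MSCs was not tested.

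Between rejuvenated old and old MSCs, where Sox9 and Matn2 were called, single markers of most of these types were called too. In this comparison 41.6% of all genes were called, and the libraries did not overlap for 22.0%. Of 6 osteoblast markers, Ibsp (−2.22), Dmp1 (−1.92) and Bglap (−1.46), which encode bone matrix proteins, were lower without overlap of the libraries (limma adjusted p = 2.92e-06, 1.69e-06 and 0.000102), while Alpl, the largest part of the osteoblast sum, was slightly higher (0.15, limma adjusted p = 0.043). Of 8 macrophage markers, Cd68 was lower and Itgam higher (−0.32 and 0.48, limma adjusted p = 0.000102 and 0.00548). Of 3 tested adipocyte markers, Fabp4 was higher and Plin1 lower (0.48 and −0.70, limma adjusted p = 2.57e-05 and 0.0194). Of 9 stromal markers 3 were higher and 3 lower, with Ly6a the largest at 1.07 (limma adjusted p = 1.67e-08), and both tested tendon markers were lower. Of 3 tested endothelial markers, Cd34 was higher and Kdr lower, with overlapping libraries. The part of these markers in the changes of Sox9 and Matn2 was not tested.

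One rejuvenated old library, replicate 1, stood apart in Cd34, with a normalized count of 401.6 against 24.2 to 41.9 in the other 5, and the other endothelial markers were not raised in it. Col11a1 (31.9 against 2.90 to 10.5) and Thy1 (21.6 against at most 0.951), which like Cd34 were high in young MSCs, stood apart in it as well. Comp and Scx, also high in young MSCs, did not, with 13.4 against 15.1 to 28.5 for Comp and 25.7 against 21.3 to 32.1 for Scx. Without this library, rejuvenated old against old was 0.72 for Sox9 (limma adjusted p = 3.6e-09) and −1.21 for Matn2 (limma adjusted p = 2.72e-14). Sox5, Comp and Prg4 were again not called (−0.18, −0.32 and 0.28).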

How the data were processed

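RNA of 18 cultures of bone marrow MSCs (6 young, 6 old, 6 rejuvenated old) was sequenced from stranded mRNA libraries. The authors aligned reads to mm10 with HISAT2, used StringTie and featureCounts to count them, and normalized the counts with DESeq2. Versions, annotation, strand setting and filters are not given in the sources used here. Each deposited value is a signal, the reads of a gene in a library divided by that library's size factor, without pooling of replicates. Every value was a whole multiple of 1 read (100% within 0.01 read), so reads could be recovered. Replicates of a group differed by more than sampling noise.

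Here log2(value + 1) was fitted with limma 3.58.1 in R 4.3.3, with 3 groups in 1 fit and a variance prior that depends on the mean level, over 14353 genes with a mean of at least 10. Lower members were tested with two-sided exact permutation tests (924 splits, smallest possible p 0.00216). edgeR 4.0.16 and DESeq2 1.42.0 were run on recovered reads as alternatives. The rest was done in Python 3.11.15 (pandas 2.3.3, scipy 1.17.1, numpy 2.4.6, and matplotlib 3.10.9 for plots). Coordinates came from the RefSeq table of GRCm38.p6 (mm10), in which 25275 of 27179 genes were found, and exon lengths from GENCODE M21.

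The members and lists were chosen with earlier results of these data known. The genes named are the members, their family relatives and, from each of the 4 cartilage lists, up to 3 called genes with the largest rise and 3 with the largest fall in rejuvenated old against old and in young against old MSCs. Adamts4, Col11a2 and the single markers were named after their values were seen. Alternatives covered the pseudocount, the filter, the scaling, a common variance prior, fits of 2 groups, a block for the replicate number, both count tests, a stricter threshold, the chromosome median and leaving out each library.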

Additional observations from a re-analysis of the deposited data

How the results depend on the processing

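The 5 tested members kept their direction and call under every alternative other than leaving out a library: pseudocounts of 0.5 and 10, no filter or a mean of at least 50, 3 other scalings, fits of 2 groups, a single prior variance, an adjusted p under 0.01, values relative to the chromosome median, edgeR and DESeq2. Fits that each left out 1 of the 18 libraries gave 2 to 3 members called between rejuvenated old and old MSCs, the added one being Comp, and 5 in each other comparison. For Comp the log2 fold change then ran from −0.55 to −0.26. The p of Sox6 ran from 0.00433 to 0.0195 for rejuvenated old against old, and from 0.0411 (without young replicate 3) to 0.288 for young against rejuvenated old. Same-numbered libraries of 2 groups did not deviate together (r from −0.15 to 0.07 in 18 pairs), so the numbers were not taken as pairs, and with the replicate number as a block 2, 5 and 5 members were called as before. Depth limits Acan, Hapln1 and Sox6.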

Other observations

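The genes whose profile over the 18 libraries was most like that of each tested member are given as a description, since the libraries share their group and many genes follow the groups. For Sox9 these were Adipor2, an adiponectin receptor (Pearson r = 0.988), and the aggrecanase gene Adamts5 (0.986), and 103 genes had an r over 0.95. For Matn2 they were the cathepsin gene Ctsb (0.992) and Capn6 (0.992), with 79 genes over 0.95. For Sox5 they were Tcf4 and Bccip (0.988 and 0.987, 1272 genes over 0.95), and for Comp Haghl and Suds3 (0.988 and 0.987, 1109 genes). For Prg4 they were Abhd11os, an antisense gene whose reads depend on the strand setting (0.995), and the macrophage marker Mrc1 (0.994), with 2239 genes over 0.95. Mrc1 had a mean normalized count of 5.97 for young, 510.3 for old and 597.6 for rejuvenated old MSCs. With the group means removed, these correlations were lower, at 0.37 and 0.26 for Sox9 and 0.47 and 0.34 for Matn2. They were 0.65 and 0.63 for Sox5, 0.61 and 0.58 for Comp, and 0.777 and 0.785 for Prg4.

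After the group means were removed, the correlation between members over the libraries ran from −0.56 (Sox9 with Comp) to 0.51 (Sox9 with Prg4) in 10 pairs. That of Sox9 with Matn2 was −0.97 over the 18 libraries and −0.12 within groups.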
